A study of Mus musculus with 4 samples.

Results

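Genes of the Wnt pathway were followed in C2C12 cells, a mouse myoblast line that fuses into multinucleate myotubes when serum is lowered. Members were matched by gene symbol, covering Wnt ligands, their secretion factors, receptors, secreted modulators, cytoplasmic and nuclear transducers and planar polarity genes. The set was chosen with earlier results of these data known. Of 13824 symbols in the tables, 48 matched, and the 40 with a mean of at least 0.5 FPKM (a fragment count divided by transcript length and by the library's total) over the 4 libraries were kept. The highest symbol left out was Vangl2, at a mean of 0.497 FPKM, and the lowest kept were Rspo3 at 0.738 and Lef1 at 0.743 FPKM. The other symbols left out were Axin2, Fzd4, Fzd8, Lgr6, Ror1, Ror2 and Wnt6. Among them, Axin2, a feedback inhibitor that Wnt signalling commonly switches on, was at 0.231 to 0.347 FPKM.

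Every culture received siRNA at 30 nM with Lipofectamine, followed by 48 h of differentiation in medium holding 2% horse serum. In 2 libraries the siRNA was scrambled, and in the other 2 (siMEF2A) it was directed against Mef2a, which encodes a MADS-box transcription factor of muscle. Both groups come from 1 cell line, and the labels do not say whether libraries of a group came from separate cultures. P-values therefore speak of the spread among these 4 libraries alone, and that spread may be technical.

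Wnt ligands are lipid-modified secreted proteins that bind Frizzled receptors and the co-receptors Lrp5 and Lrp6. In the canonical branch this binding stops a cytoplasmic complex of Axin, Apc and glycogen synthase kinase from marking beta-catenin for destruction, and beta-catenin then enters the nucleus and acts with Tcf and Lef factors. Other branches steer cell polarity and calcium through Ryk, Ror, Vangl, Prickle and Daam proteins. In muscle, the pathway is known for roles in the patterning of muscle precursors and in the choice of satellite cells between renewal and differentiation.

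Mef2a was at 25.8 and 32.2 FPKM with scrambled siRNA, against 12.7 and 14.3 FPKM with siMEF2A, 46.5% of the scrambled level (log2 difference -1.05, SE 0.15, limma adjusted p = 2.74e-05). Of 10 myoblast and myotube markers 8 were measured, and their summed FPKM was 1560 and 1834 with scrambled siRNA, against 1420 and 1621 with siMEF2A, so that the groups overlapped. Des at 71.0%, Myod1 at 71.6%, Myog at 63.2%, Tnnt1 at 49.6% and Myh3 at 33.0% of scrambled were lower in both siMEF2A libraries. Vim, the most abundant of the list, was at 109% with groups that overlapped. Myf5 and Chrna1, also measured, were not looked at singly. Summed FPKM was 37.7 and 43.4 FPKM with scrambled siRNA, against 59.2 and 41.5 FPKM with siMEF2A for 3 fibroblast markers measured of 5. It was 5.15 to 5.88 for 2 adipocyte markers, 2.27 to 2.83 for 2 macrophage markers and 0.525 to 1.52 for 1 osteoblast marker, each of 5, and 0 of 5 endothelial markers were measured. The part of differentiation state in the results below was not tested, and in bulk RNA fewer cells of a type and less RNA per cell cannot be told apart. Depth relative to scrambled replicate 1 was estimated at 1.05, 0.849 and 0.849 in scrambled replicate 2, siMEF2A replicate 1 and siMEF2A replicate 2. Each estimate was the commonest ratio of FPKM in scrambled replicate 1 to that library among 600 low genes with 1 listed transcript. Only 7 to 13 of these genes shared it. Absolute depth was unknown, so no counting interval was computed.

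At these levels Wnt10a was the leading ligand gene measured, Ryk and Fzd2 the leading receptor genes of their kinds, and Wls and Ctnnb1 the most abundant members. One member passed the test of siMEF2A against scrambled. Dkk2, the gene of a secreted Dickkopf protein that binds Lrp5 and Lrp6, rose to 187% of its scrambled level. None of the ligand, receptor, cytoplasmic or nuclear genes passed.

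Of the 40 members, 35 had a mean of at least 1 FPKM and were tested in a limma fit over all 11822 genes at that level, on the log2(FPKM + 1) scale. Among these 35, 1 was called higher and 0 lower at an adjusted p under 0.05, while 1.76% of all genes tested were called, 0.406% higher and 1.35% lower. At an unadjusted p under 0.05, 3 members were higher and 1 lower, against 3.09% and 3.3% of all genes. Over all genes 48 were called higher and 160 lower, so that 76.9% of calls were lower, and this share was 90.6% under median-ratio, 90.4% under upper-quartile and 90.7% under quantile scaling. The median log2 difference was 0.01 over the members tested and 0.04 over all genes tested. With 1 library left out the members' median ran from -0.084 to 0.12 and that of all genes from 0.0025 to 0.090. Log2 differences lay within 0.25 of 0 for 29 of the 35 members (82.9%) and for 88.9% of all genes. The groups did not overlap for 13 of the 40 members, 9 of them higher in siMEF2A (22.5%, against 18.9% of all genes at 0.5 FPKM or more) and 4 lower (10.0%, against 9.93%). Both shares were near those of all genes. Standard errors of the members ran from 0.15 to 0.18 on the log2 scale.

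**Figure D1:**
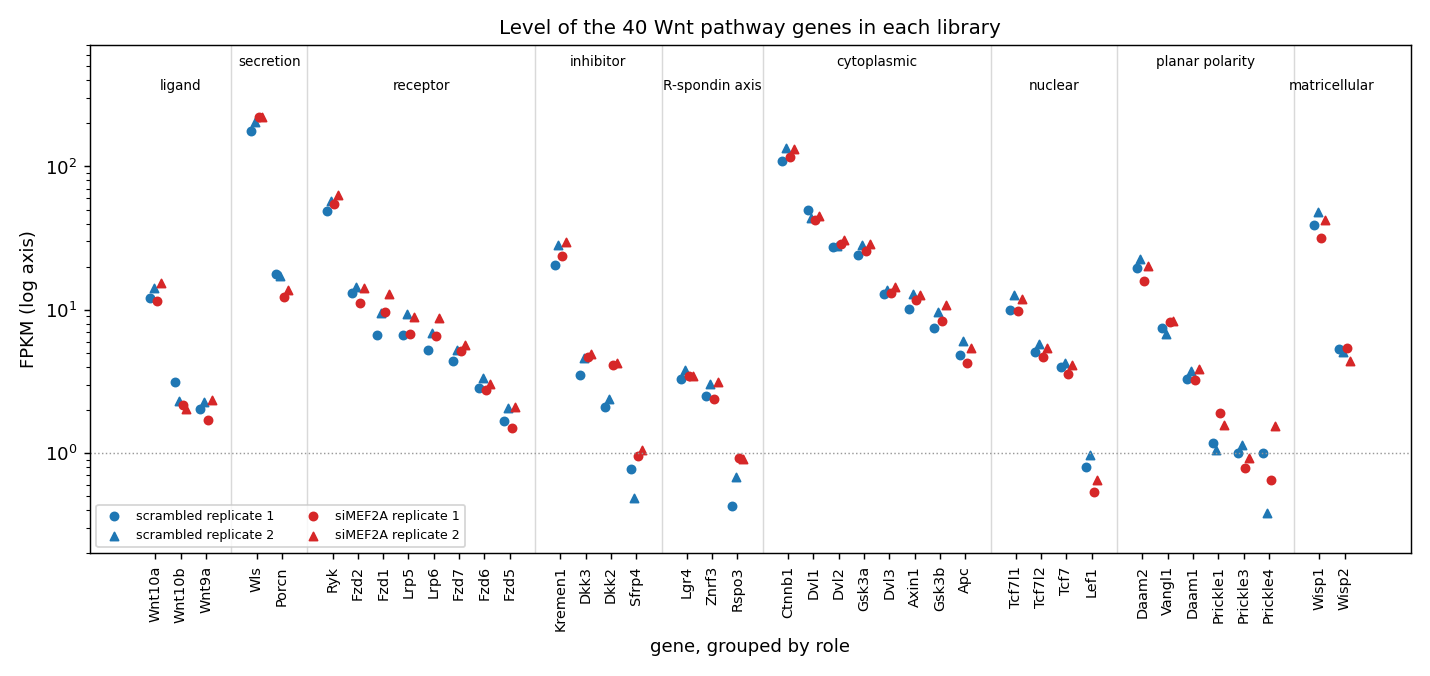
FPKM (log axis) of each of the 40 members in each library, grouped by role; blue points are scrambled, red points siMEF2A, circles replicate 1 and triangles replicate 2, and the dotted line is the minimum mean of 1 FPKM for a test. Wls and Ctnnb1 lie above 100 FPKM in every library, and the red points of Dkk2 lie above its blue points while those of Porcn lie below.

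Among secreted inhibitors and their co-receptors, Dkk2 (ENSMUSG00000028031, chromosome 3, 132085292 to 132180304, plus strand, mm10) was at 2.10 and 2.37 FPKM with scrambled siRNA, against 4.13 and 4.24 FPKM with siMEF2A. Both siMEF2A libraries were above both scrambled ones, and the gap between groups was wider than the distance between replicates of either group. The mean went from 2.23 ± 0.195 to 4.19 ± 0.0771 FPKM (SD, n = 2 each), a log2 difference of 0.68 (SE 0.15, 95% interval 0.38 to 0.98, limma adjusted p = 0.00516). Without scrambled replicate 1 the log2 difference was 0.62 and the call was lost (limma adjusted p = 0.0914). Dkk2 has 1 listed transcript. In a second fit over all 23598 transcripts with a mean of at least 1 FPKM, the same values did not pass (SE 0.17, limma adjusted p = 0.322). The pooled spread of that fit was larger, and it had 6.24 prior degrees of freedom, against 30.2 in the gene fit.

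The promoter of Dkk2 is shown because it belongs to the member that passed. RefSeq's 250 bases before the gene's start (GRCm38.p6, the assembly of mm10, chr3:132085042-132085291, plus strand) read as follows, with the letters TATAAA in capitals, which begin 32 bases before the start.
Dkk2 promoter: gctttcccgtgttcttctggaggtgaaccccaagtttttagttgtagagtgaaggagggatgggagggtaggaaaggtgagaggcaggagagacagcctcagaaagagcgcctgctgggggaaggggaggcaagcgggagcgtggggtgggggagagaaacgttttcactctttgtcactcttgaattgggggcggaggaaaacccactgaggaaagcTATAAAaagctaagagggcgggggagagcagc

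Of the 40 members, 24 had promoter entries in that RefSeq table, 33 windows of 250 bases before to 50 after a start. On both strands, TATAAA occurred in 8 of these windows and in 13.6% of the 32851 windows of all genes. The MEF2 consensus occurred in 0 of the 33 and in 3.19% of all windows. For the Tcf and Lef family, the letters CTTTGAT occurred in 0 and CTTTGTT in 2, those of Fzd7 and Tcf7l2, against 3.73% and 5.85% of all windows. The E-box CAGCTG, a form that myogenic factors bind, occurred in 4 windows, those of Dvl3, Lef1, Tcf7 and Wnt9a, against 16.3% of all. These matches describe letters in a window and not binding sites.

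Kremen1, whose product is a co-receptor for Dickkopf proteins, was the most abundant gene of this role, at 20.7 and 28.2 FPKM with scrambled siRNA, against 23.7 and 29.7 FPKM with siMEF2A. The groups overlapped, replicate 2 was the higher library in each, and the log2 difference of 0.13 did not pass (SE 0.16, limma adjusted p = 1.0). Its sign turned without scrambled replicate 1 (-0.08) or siMEF2A replicate 2 (-0.03). Dkk3, a divergent Dickkopf gene, was at 3.53 and 4.59 FPKM with scrambled siRNA, against 4.72 and 4.90 FPKM with siMEF2A. The groups did not overlap, but the log2 difference of 0.21 did not pass (SE 0.15, limma adjusted p = 1.0). Sfrp4, which encodes a secreted Frizzled-related protein that can bind Wnt ligands, was under the minimum for the test, at 0.770 and 0.489 FPKM with scrambled siRNA, against 0.951 and 1.06 FPKM with siMEF2A. Tested in a fit at a minimum of 0.5 FPKM it had an adjusted p of 0.632 (limma).

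The ligand genes measured were few. Wnt10a was at 12.1 and 14.2 FPKM with scrambled siRNA, against 11.5 and 15.5 FPKM with siMEF2A, so that the siMEF2A libraries lay on either side of the scrambled ones. Its log2 difference was 0.02 (SE 0.16, 95% interval -0.30 to 0.34, limma adjusted p = 1.0), and its sign turned under each of the 3 other scalings (-0.03 to -0.01). Wnt10b, its close relative, stood lower, at 3.13 and 2.30 FPKM with scrambled siRNA, against 2.17 and 2.03 FPKM with siMEF2A. The groups did not overlap, with scrambled replicate 1 above the other 3 libraries, and the log2 difference of -0.25 did not pass (SE 0.15, limma adjusted p = 1.0). Wnt9a ranged from 1.71 to 2.35 FPKM over the 4 libraries, with groups that overlapped. Over all 4 libraries the range of Wnt10a lay above that of Wnt10b, while the ranges of Wnt10b and Wnt9a overlapped. Wnt10a (chromosome 1, 74791516 to 74804179, plus strand) lies next to Wnt6 (74771892 to 74785322, plus strand), and Wnt6 was at 0.227 to 0.391 FPKM.

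Of the genes for ligand maturation and export, Wls lay higher and Porcn lower in siMEF2A, and neither passed the test. Wls encodes the carrier that brings lipid-modified Wnt proteins to the cell surface, and it was the most abundant member, above 97.0% of all genes. It was at 177 and 206 FPKM with scrambled siRNA, against 221 and 222 FPKM with siMEF2A. Both siMEF2A libraries were higher, though the scrambled libraries lay further from each other than the higher of them lay from siMEF2A, and the log2 difference of 0.21 did not pass (SE 0.18, limma adjusted p = 1.0). Porcn (ENSMUSG00000031169, chromosome X, 8193848 to 8206525, minus strand) encodes the acyltransferase that attaches the lipid. It was at 17.8 and 17.3 FPKM with scrambled siRNA, against 12.3 and 13.7 FPKM with siMEF2A. Both siMEF2A libraries were below both scrambled ones, at 74.2% of the scrambled mean, but the log2 difference of -0.41 did not pass (SE 0.15, limma adjusted p = 0.307).

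Porcn was looked at by transcript, since its 7 listed transcripts did not go together. The coding sequences of the 4 protein-coding ones differ by 2 short exons of 18 and 15 bases (X, 8203026 to 8203043 and 8201658 to 8201672, mm10), whose lengths keep the reading frame, and Porcn-202 also reaches slightly further at both ends, outside the coding sequence. The stretches below, from the GENCODE M21 transcripts, show the last 24 bases of the exon before and the first 24 bases of the exon after in lower case, and the short exons in capitals.
Porcn-201: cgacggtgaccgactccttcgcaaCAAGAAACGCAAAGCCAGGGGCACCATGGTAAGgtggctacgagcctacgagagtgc
Porcn-202: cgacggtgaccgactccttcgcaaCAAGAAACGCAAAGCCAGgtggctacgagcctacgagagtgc
Porcn-203: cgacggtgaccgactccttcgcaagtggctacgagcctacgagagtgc
Porcn-204: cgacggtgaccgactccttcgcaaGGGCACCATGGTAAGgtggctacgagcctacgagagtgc

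Porcn-201, which holds both short exons, was at 4.43 and 6.67 FPKM with scrambled siRNA, against 2.40 and 2.68 FPKM with siMEF2A. It was lower in both siMEF2A libraries, at 45.8% of the scrambled mean, with a log2 difference of -0.87 (SE 0.21) that did not pass over all transcripts (limma adjusted p = 0.287). Its share of the summed FPKM of the 4 coding transcripts of Porcn was 68.4% and 66.3% in scrambled and 37.7% and 37.6% in siMEF2A. These shares were not tested. The scrambled replicates split the rest of that sum differently, with Porcn-202 at 27.0% and 15.6% and Porcn-203 at 0.0015% and 14.9%.

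Porcn-203, which holds neither, was listed near 0 (9.79e-05) and at 1.5005 FPKM with scrambled siRNA, against 1.74 and 2.15 FPKM with siMEF2A. Both siMEF2A libraries were higher, but the scrambled libraries differed from each other by more than the groups did, and the test did not pass (limma adjusted p = 0.863). A value near 0 can be a failed estimate, and without scrambled replicate 2, where that value alone stands for scrambled, Porcn-203 was called higher (limma adjusted p = 0.0490). Porcn-202, with the 18-base exon alone, was at 1.75 and 1.57 FPKM with scrambled siRNA, against 1.88 and 2.31 FPKM with siMEF2A. Porcn-204, with the 15-base exon alone, was below 0.4 FPKM in every library.

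The 3 non-coding Porcn transcripts took 42.0% to 63.6% of the gene's FPKM in each library. Their sum was 11.3 and 7.27 FPKM with scrambled siRNA, against 5.96 and 6.60 FPKM with siMEF2A, while the coding sum was 6.48 and 10.1 FPKM with scrambled siRNA, against 6.37 and 7.14 FPKM with siMEF2A. The non-coding sum was therefore lower in both siMEF2A libraries, and the coding sums overlapped. Among these 3, Porcn-205 (ENSMUST00000122943), annotated for nonsense-mediated decay, went from 5.70 and 4.79 to 3.24 and 3.36 FPKM, and one that keeps an intron (ENSMUST00000139744) from 3.43 and 2.26 to 1.61 and 1.58 FPKM (limma adjusted p = 0.566 and 0.745). Porcn-207 (ENSMUST00000154695), also annotated for decay, overlapped between groups, with scrambled replicates at 2.19 and 0.220 FPKM.

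**Figure D2:**
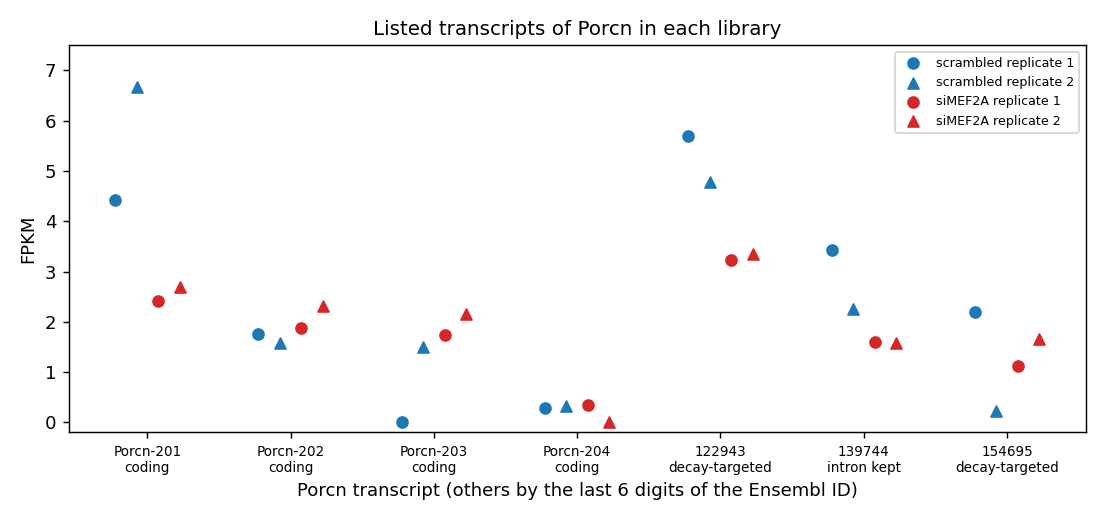
FPKM of the 7 listed transcripts of Porcn in each library, coding ones first; blue points are scrambled, red points siMEF2A, circles replicate 1 and triangles replicate 2. The red points of Porcn-201 (2.40 and 2.68) lie below its blue points (4.43 and 6.67), and those of Porcn-203 lie above.

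Of the 105 transcripts of the 40 members, 70 were tested, and limma called 0 higher and 0 lower, with 3 in each direction at an unadjusted p under 0.05. Over all 23598 transcripts tested, 0.0297% were called higher and 0.195% lower. At an unadjusted p under 0.05, 639 of these 23598 were higher and 700 lower. Isoform estimates split the reads of shared exons, so they are less certain than sums per gene.

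Log2 differences of the 8 receptor genes tested ran from -0.11 to 0.43, and 0 passed. Frizzled genes stood in the order Fzd2, Fzd1, Fzd7, Fzd6 and Fzd5, with means of 13.2, 9.67, 5.14, 2.99 and 1.82 FPKM over the 4 libraries. The ranges of Fzd2 and Fzd1 overlapped, and those of the other neighbours in that order did not. Exons of Fzd5 and Fzd6 overlap non-coding genes on the opposite strand. Fzd1 (chromosome 5, 4753839 to 4758035, minus strand) was at 6.69 and 9.50 FPKM with scrambled siRNA, against 9.59 and 12.9 FPKM with siMEF2A. The lower siMEF2A library was just above the higher scrambled one, and replicate 2 was the higher library in both groups. The log2 difference was 0.43 (SE 0.17, 95% interval 0.10 to 0.77, limma adjusted p = 0.359), and it depended on the libraries used. Leaving out scrambled replicate 1 gave 0.21 and leaving out siMEF2A replicate 2 gave 0.24, neither of them called (limma adjusted p = 1.0 and 0.9999), while leaving out scrambled replicate 2 gave 0.66, which was called (limma adjusted p = 0.0378).

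Ryk, an atypical receptor with a Wnt-binding domain, was the most abundant receptor gene, at 49.0 and 57.0 FPKM with scrambled siRNA, against 54.5 and 62.8 FPKM with siMEF2A. The groups overlapped (log2 difference 0.14, SE 0.16, limma adjusted p = 1.0). The co-receptor genes Lrp5 and Lrp6 were at like levels, with means of 7.93 and 6.88 FPKM and ranges that overlapped. Lrp6 was at 5.26 and 6.92 FPKM with scrambled siRNA, against 6.57 and 8.76 FPKM with siMEF2A, with overlapping groups (log2 difference 0.29, SE 0.16, limma adjusted p = 0.974). Lrp5 was at 97.3% of scrambled.

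The R-spondin axis raises the amount of Frizzled at the surface, where the ligase Znrf3 would otherwise remove it. Lgr4, an R-spondin receptor gene, was at 3.27 and 3.83 FPKM with scrambled siRNA, against 3.47 and 3.43 FPKM with siMEF2A, with the siMEF2A libraries between the scrambled ones (log2 difference -0.03, SE 0.15, limma adjusted p = 1.0). Its sign turned without scrambled replicate 2 (0.06). Znrf3 was at 2.39 to 3.15 FPKM, at 101% of scrambled. Rspo3, the ligand gene of this axis, was at 0.430 and 0.680 FPKM with scrambled siRNA, against 0.926 and 0.916 FPKM with siMEF2A, higher in both but under the minimum for the test. In the fit at a minimum of 0.5 FPKM its log2 difference of 0.31 did not pass (SE 0.13, limma adjusted p = 0.592). Exons of Rspo3 overlap an antisense gene, and no use of strand in counting was stated, so reads of the pair cannot be told apart.

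Of the cytoplasmic transducers, Ctnnb1, the gene of beta-catenin and the most abundant member after Wls (chromosome 9, 120929216 to 120960507, plus strand), was at 109.6 and 135 FPKM with scrambled siRNA, against 116 and 133 FPKM with siMEF2A. The siMEF2A libraries lay between the scrambled ones, and the log2 difference of 0.03 had a 95% interval of -0.33 to 0.38 (SE 0.17, limma adjusted p = 1.0). Its sign turned under median-ratio (-0.03) and upper-quartile scaling (-0.01). All 8 genes of this role had log2 differences between -0.15 and 0.15 and 0 passed. In the values as deposited, 6 were above 0 and 2 below, while 63.9% of all genes tested were above 0.

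The Dishevelled genes, which relay the signal from Frizzled, stood in the order Dvl1, Dvl2 and Dvl3, with means of 45.4, 28.8 and 13.6 FPKM and ranges that did not overlap. Non-coding transcripts took 41.0% of the FPKM of Dvl1 and 40.8% of that of Dvl2, against 8.0% of that of Dvl3. Gsk3a, at a mean of 26.8 FPKM, lay above Gsk3b at 9.05 FPKM, both genes of glycogen synthase kinase. Axin1 and Apc, the scaffolds of the destruction complex, were at 105% and 88.6% of scrambled. Exons of Ctnnb1, Dvl1, Dvl2 and Gsk3a overlap genes on the opposite strand that the tables also list, Dvl2 by 1151 bases with Acadvl, so their levels are less certain.

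Nuclear factor genes had log2 differences a little below 0 in each of the 3 tested, from -0.08 to -0.05, and 0 passed. Tcf7l1, the gene of the factor best known as a repressor, was the most abundant, at 10.0 and 12.6 FPKM with scrambled siRNA, against 9.81 and 11.96 FPKM with siMEF2A. The groups overlapped (log2 difference -0.05, SE 0.16, limma adjusted p = 1.0), and the sign turned without scrambled replicate 2 (0.11) or siMEF2A replicate 1 (0.08). The order was Tcf7l1, Tcf7l2, Tcf7 and Lef1, with means of 11.1, 5.24, 3.995 and 0.743 FPKM and ranges that did not overlap between neighbours. Lef1 was at 0.802 and 0.973 FPKM with scrambled siRNA, against 0.540 and 0.655 FPKM with siMEF2A, lower in both siMEF2A libraries. It was under the minimum for the test, and at a minimum of 0.5 FPKM its log2 difference of -0.24 did not pass (SE 0.13, limma adjusted p = 0.927). Exons of Lef1 and Tcf7l1 overlap antisense genes.

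Planar polarity genes were led by Daam2, whose formin protein acts below Dishevelled on the actin cytoskeleton. It was at 19.7 and 22.5 FPKM with scrambled siRNA, against 15.9 and 20.3 FPKM with siMEF2A, with overlapping groups (log2 difference -0.22, SE 0.16, limma adjusted p = 1.0). Its relative Daam1 was lower in level, at a mean of 3.53 FPKM, and at 101% of scrambled. Prickle1 (chromosome 15, 93499114 to 93595891, minus strand), which encodes a cytoplasmic polarity protein, was at 1.18 and 1.05 FPKM with scrambled siRNA, against 1.92 and 1.58 FPKM with siMEF2A. Both siMEF2A libraries were higher, at 156% of the scrambled mean, but the log2 difference of 0.37 did not pass (SE 0.15, limma adjusted p = 0.405). Vangl1, the gene of a membrane polarity protein, was at 115% of scrambled with groups that did not overlap (limma adjusted p = 1.0). Prickle3 and Prickle4 were under the minimum for the test, and 89.1% and 77.9% of their FPKM came from transcripts that keep introns. Prickle4 shares 1123 exon bases with a gene on the same strand that the tables also list, so its level is uncertain.

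The matricellular genes Wisp1 and Wisp2 encode secreted proteins, and both were found as Wnt-induced genes. Wisp1 was at 39.1 and 47.9 FPKM with scrambled siRNA, against 31.7 and 42.1 FPKM with siMEF2A. The groups overlapped, and the log2 difference of -0.24 did not pass (SE 0.16, limma adjusted p = 1.0). Wisp2 stood lower, at 4.43 to 5.43 FPKM, and was at 94.7% of scrambled.

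**Figure D3:**
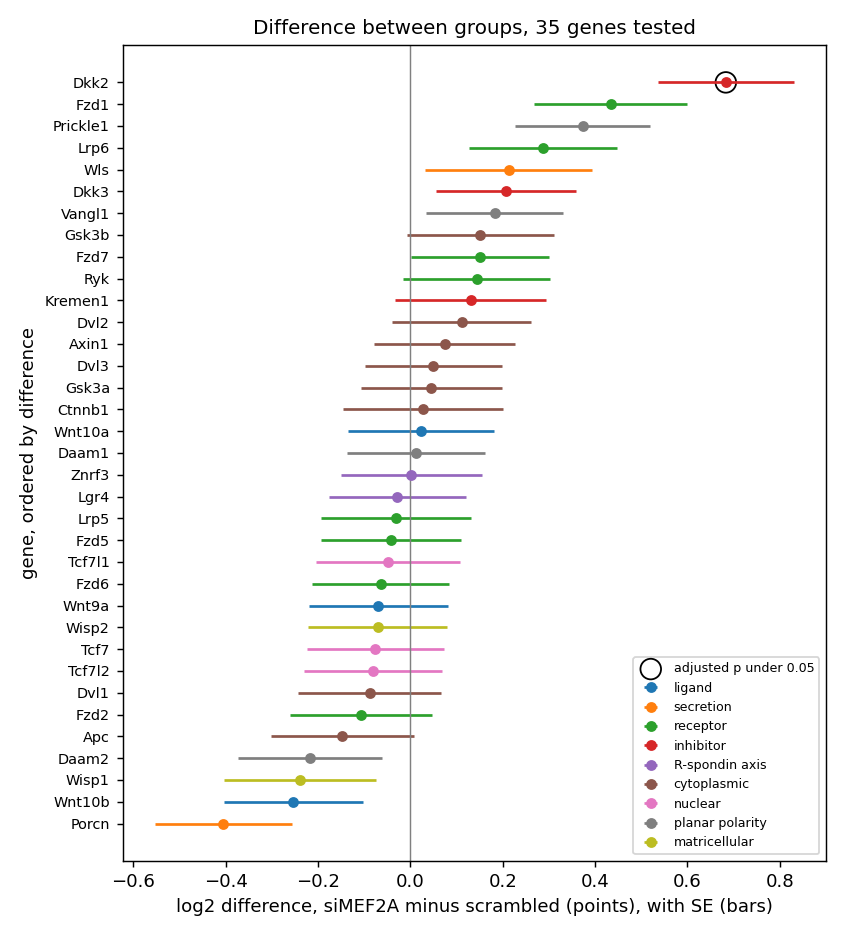
Log2 difference of each of the 35 members tested, siMEF2A minus scrambled on the log2(FPKM + 1) scale, as points coloured by role with bars for the standard error of the fit; the circle marks an adjusted p under 0.05. Dkk2 stands at 0.68, and 29 of the 35 points lie within 0.25 of 0.

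Replicates differed from each other in a way that many members shared. FPKM was higher in replicate 2 than in replicate 1 for 32 of the 40 members in scrambled and for 35 of the 40 in siMEF2A, against 64.5% and 62.5% of all genes at 0.5 FPKM or more. Among the 35 members tested, the ratio of replicate 2 to replicate 1 had a median of 1.17 in scrambled and 1.15 in siMEF2A, and ran from 0.736 to 1.42 and from 0.816 to 1.40. Across these 35 genes the difference of replicate 2 minus replicate 1 on the log2(FPKM + 1) scale went with transcript length. Spearman's rho was 0.47 in scrambled and 0.44 in siMEF2A, and the long genes Lrp6 and Apc were higher in replicate 2 of both groups. Over all genes the values were 0.43 and 0.55. Log2 differences of members that did not pass moved with the libraries used. With 1 library left out, Wisp1 ran from -0.44 to -0.041, Daam2 from -0.38 to -0.051, Wnt10b from -0.41 to -0.092, Wls from 0.11 to 0.32 and Ryk from 0.036 to 0.25. The genes share libraries and are not independent, so these are descriptions. The difference between the groups went with length less, with a rho of 0.18 over the members and 0.26 over all genes. With each library's trend on length removed, an alternative chosen after seeing the data, Dkk2 had a log2 difference of 0.61 (SE 0.10, limma adjusted p = 0.0318), and it was the single member called.

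**Figure D4:**
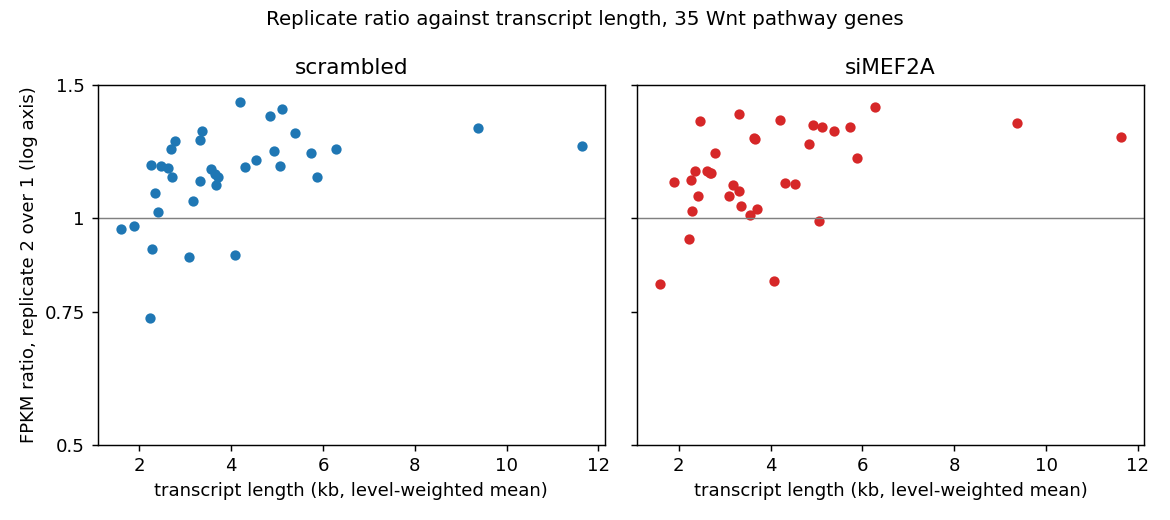
Ratio of FPKM in replicate 2 to replicate 1 (log axis) against transcript length in kilobases, averaged over a gene's listed transcripts by level, for the 35 members tested, in scrambled (left) and siMEF2A (right). Most points lie above 1 in both panels, 29 of 35 in scrambled and 31 of 35 in siMEF2A, and no point below 1 is of a transcript longer than 5.06 kb.

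Beyond the members, 80 symbols were listed for genes that act with the pathway or are commonly cited as its targets. Intu and Cyr61 were each listed under a second name as well. Of the 80 symbols, 65 were measured and 60 tested. Of these, limma called 0 higher and 0 lower, and an unadjusted p under 0.05 was found for 6 that were higher (10%) and 1 that was lower, against 3.09% and 3.3% of all genes tested. Their median log2 difference was 0.11, against 0.04 over all genes, and it ran from -0.0057 without scrambled replicate 1 to 0.22 without scrambled replicate 2, with 0.061 under median-ratio scaling. The gene with the smallest p was Scrib, whose scaffold protein sets cell polarity, at 33.3 and 38.1 FPKM with scrambled siRNA, against 24.8 and 25.6 FPKM with siMEF2A. Both siMEF2A libraries were lower, at 70.6% of scrambled (log2 difference -0.48, SE 0.15, limma adjusted p = 0.136), and with the trend on length removed Scrib was called (limma adjusted p = 0.0497).

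Of 9 commonly cited canonical target genes tested, 0 were called, and their log2 differences ran from -0.26 to 0.43. Ccnd1, the gene of cyclin D1, was at 5.85 and 6.89 FPKM with scrambled siRNA, against 9.005 and 8.82 FPKM with siMEF2A, higher in both (log2 difference 0.43, SE 0.15, limma adjusted p = 0.232). Fst, the gene of follistatin and on the same list, was just under the minimum for the test, at 1.21 and 1.58 FPKM with scrambled siRNA, against 0.486 and 0.630 FPKM with siMEF2A. It was lower in both siMEF2A libraries, at 39.95% of scrambled, and in the fit at a minimum of 0.5 FPKM it was called (log2 difference -0.62, SE 0.14, limma adjusted p = 0.0141). Of 13 surface and matrix modulators, 0 were called, and 3 had higher values with an unadjusted p under 0.05, a property of 3.09% of all genes. Igfbp4, whose product can also bind Frizzled and Lrp6, was at 132% of scrambled, Sdc1, the gene of syndecan 1, at 127%, and Gpc6, a glypican gene, at 135% (limma adjusted p = 0.436, 0.694 and 0.759). The groups of Gpc6 overlapped, and its log2 difference of 0.34 was 0.069 without scrambled replicate 1. Among 13 nuclear cofactors Tle1, a Groucho corepressor gene, was at 132%, and among 13 polarity and calcium genes Ppp3ca, a calcineurin subunit gene, at 130% (limma adjusted p = 0.434 and 0.563). The log2 difference of Ppp3ca was 0.39, and it was 0.13 without scrambled replicate 1 (limma adjusted p = 1.0) and 0.66, and called, without scrambled replicate 2 (limma adjusted p = 0.0374). The 12 genes tested from a list named for the destruction complex, which also holds casein kinases and tankyrases, had log2 differences from 0.00 to 0.17. Of them, 0 were called.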

How the data were processed

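The deposited values were FPKM per Ensembl transcript, 1 table per library, per the file headers. Tools listed in the submitters' processing notes are TopHat, Bowtie, Cufflinks, Trimmomatic and CASAVA, with the build mm10. Their versions and settings, the annotation, use of strand and any scaling between libraries were not given in the sources used here. Groups and replicate numbers came from the sample titles. Column headers number the scrambled libraries differently.

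FPKM were summed per symbol, 28 symbols of small RNAs and their host genes were left out, and log2(FPKM + 1) was tested two-sided on the 11822 genes averaging 1 FPKM or more, by limma 3.58.1 under R 4.3.3 with eBayes moderation along an intensity trend. Benjamini-Hochberg adjustment ran over all of them, and a call is an adjusted p under 0.05. Differences are siMEF2A minus scrambled, and this scale understates changes of low genes. The moderated test had 2 residual and 30.2 prior degrees of freedom. The same model was fitted to transcripts. The fit was tested on simulated data. Lengths, types and coordinates came from GENCODE M21 (mm10), where 97.3% of transcripts were found. Named members were those called or at an unadjusted p under 0.05, the most abundant of each role, and the 3 largest rises and falls. Others were chosen after their values were seen. Alternatives covered pseudocount, minimum level, scaling, moderation, the replicate block and each library left out. Members and lists were chosen with earlier results of these data known.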

Additional observations from a re-analysis of the deposited data

How the results depend on the processing

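The count of Wnt genes called higher was 1 under each alternative but 3. It was 0 to 2 when 1 library was left out, and 2 with the replicate number as a block, where 1 was called lower. In the gene fits Dkk2 kept its direction under every alternative run, and its 1 lost call there was without scrambled replicate 1 (0.62). Tested among transcripts, the same values of Dkk2 were not called (limma adjusted p = 0.322). The block added Fzd1 (limma adjusted p = 0.00918) and Porcn (0.0216), with 3 partner genes higher and 1 lower. The shared numbers do not pair the libraries by any label. Deviations of same-numbered libraries correlated at 0.289 across all genes and 0.654 across the members, which are not independent, with only 2 pairs. Partner genes called higher ran from 0 to 2 and lower from 0 to 1 with a library left out. One partner gene was lower at a minimum of 0.5 FPKM and with no minimum, Fst in both, and 1 with the length correction. Wnt transcripts called ran from 0 to 1 in each direction with a library left out, and without siMEF2A replicate 2 these were 2 Axin1 transcripts. Over all genes, calls higher were 30 with no minimum, 14 under median-ratio and upper-quartile scaling, 11 under quantile normalization, 25 without trend, 73 with robust moderation, 222 with the block (291 lower), 23 with small RNA symbols kept, 15 with the length correction and 42 to 76 with a library left out. Signs of genes near 0 turned. Wnt10a was at -0.028 (median-ratio), -0.015 (upper-quartile), -0.014 (quantile), -0.033 (length correction) and -0.17 to 0.22 with a library left out. Ctnnb1 was at -0.026 (median-ratio), -0.013 (upper-quartile), -0.031 (length correction) and -0.12 to 0.18 with a library left out. With a library left out, Kremen1 ran from -0.084 to 0.34, Lgr4 from -0.12 to 0.060, Tcf7l1 from -0.20 to 0.11 and Porcn-207, a non-coding Porcn transcript, from -0.42 to 0.43. The cause was not tested. Absolute depth is unknown, and genes near 1 FPKM are the least certain.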

Other observations

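Transcripts of 2 other members are described here after their values were seen, and none of them passed the test. Axin1, the scaffold of the destruction complex, lists 3 coding transcripts. ENSMUST00000163421 was at 3.39 and 1.37 FPKM with scrambled siRNA, against 5.71 and 3.26 FPKM with siMEF2A, while ENSMUST00000118904 was at 2.03 and 4.98 FPKM with scrambled siRNA, against 0.223 and 3.06 FPKM with siMEF2A. The groups overlapped for both (limma adjusted p = 0.881 and 1.0). In each group the library that was high for one was low for the other, and the sum of the gene was at 105% of scrambled. Gsk3b lists a coding transcript of 1750 bases (ENSMUST00000114750) that was at 1.46 and 2.02 FPKM with scrambled siRNA, against 2.38 and 3.24 FPKM with siMEF2A, higher in both siMEF2A libraries (limma adjusted p = 0.881). The longest Gsk3b transcript, of 8303 bases, overlapped between groups, at 4.54 and 5.61 FPKM with scrambled siRNA, against 4.60 and 6.32 FPKM with siMEF2A.

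Among the receptor genes under the minimum for members, Ror1, the gene of a receptor for non-canonical Wnt ligands, was at 0.160 and 0.201 FPKM with scrambled siRNA, against 0.326 and 0.420 FPKM with siMEF2A. Fzd4 averaged 0.191 FPKM with scrambled siRNA and 0.290 FPKM with siMEF2A, and Fzd8 0.176 and 0.306 FPKM. These 3 were higher in each siMEF2A library, while Ror2 was at 99.1% of scrambled with groups that overlapped, at 0.163 and 0.365 FPKM against 0.0245 and 0.498 FPKM. All 4 were at levels too low for the test used. Of all genes at 0.5 FPKM or more, 18.9% had groups that did not overlap with siMEF2A higher. That share was not computed for genes below 0.5 FPKM.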
